A study of Mus musculus with 2 samples.

Results

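7SK is a short noncoding RNA of the nucleus that holds P-TEFb, the kinase that releases paused RNA polymerase II into elongation, in an inactive complex. The genes examined here were 7SK and 6 protein-coding genes of the same circuit, selected by symbol from 55414 genes: Hexim1, Larp7, Mepce, Cdk9, Ccnt1 and Ccnt2. All 7 were present in both libraries and both count matrices. The symbol 7SK stood on 330 rows of the files, and the row ENSMUSG00002076161, named Rn7sk in GENCODE M39, is called 7SK below. The other 329 rows, annotated copies of it, are described separately.

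RNA polymerase III makes 7SK, so the RNA ends in uridines and carries no poly(A) tail. MEPCE caps its 5′ end, LARP7 binds and protects its 3′ end, and HEXIM1 docks on the RNA and inhibits the kinase. P-TEFb itself pairs the kinase CDK9 with cyclin T1 or cyclin T2. The mRNAs of all 6 proteins are polyadenylated, which gave an RNA that standard oligo(dT) priming should miss beside partners that it should capture.

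Nuclei of C2C12, a mouse myoblast cell line, were profiled in 2 single-nucleus libraries (Chromium v3). The in situ polyadenylated library came from nuclei incubated for 25 min at 37 °C with yeast poly(A) polymerase, which adds adenines to free RNA ends. The standard library came from nuclei that received neither the enzyme nor the warm incubation. These were counted right after the wash buffer, without the later wash and pelleting of the in situ polyadenylated nuclei. The effects of enzyme, incubation and later wash cannot be told apart. Nuclei of both were fixed in methanol, about 3300 were loaded per library for a target of 2000, and each group had 1 library, hence no replicate, no test and intervals (95%) that cover counting error only.

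Barcodes with more than 750 transcript-aligned (kallisto) unique molecular identifiers (UMIs) and under 5% mitochondrial UMIs were taken as nuclei, namely 1335 in situ polyadenylated nuclei with a median of 1088 UMIs and 1123 standard nuclei with a median of 996 UMIs. The genome-aligned (STAR) matrices gave 3758 and 8226 nuclei under the same limits. The retained sets shared 0 barcodes, although 728 in situ polyadenylated nuclei carried a barcode that was also listed in the standard library. Ribosomal RNA took 48.3% and 29.4% of the UMIs of the nuclei, which lowers the share of every other RNA in the first library, and the median protein-coding gene stood at a log2 ratio of -1.19 (2117 genes). Myoblast markers Vim (922 and 1314 UMIs) and Des (360 and 636 UMIs) were found in both libraries, Myod1 had 15 and 13 UMIs and Myf5 had 6 and 9. Of the differentiation markers, Myog had 3 and 2 UMIs, Ckm 1 and 1 and Mymk 2 and 2, while the embryonic myosin gene Myh3 had 99 and 77 and Acta1 had 7 and 10.

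The 7SK sequence is shown because its 2 ends carry the properties that matter for capture and for its protein partners. The gene spans chr9:78082585-78082915 on the minus strand of GRCm39, is a single exon of 331 nt classed as misc_RNA and overlaps no other annotated gene. HEXIM1 is known to recognise GATC motifs (GAUC in the RNA) of the 5′ hairpin, which are in capitals in the first 110 bases (chr9:78082806-78082915). In the last 60 bases (chr9:78082585-78082644) the terminal run of T is in capitals, where LARP7 is known to bind and where a poly(A) polymerase would extend the RNA.
7SK bases 1 to 110: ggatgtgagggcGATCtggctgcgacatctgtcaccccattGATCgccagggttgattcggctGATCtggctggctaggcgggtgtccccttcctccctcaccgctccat
7SK bases 272 to 331: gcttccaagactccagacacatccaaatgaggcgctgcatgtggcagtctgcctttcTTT
The motif starts at bases 13, 42 and 64, counted from the 5′ end, and reads the same on both strands. Of 478196 GENCODE M39 transcripts of at least 110 nt, 22.5% had at least 1 GATC in their first 110 bases and 0.313% had 3 or more. The longest run of A within 7SK was 3 bases, and the RNA was 58.0% G and C.

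The main question for the RNA itself was how far in situ polyadenylation changed its recovery. In the in situ polyadenylated nuclei 7SK had 1382 UMIs, or 700.0 CPM (UMIs scaled to an equal library total, 95% interval 664 to 738). In the standard nuclei it had 6 UMIs, or 4.34 CPM (1.59 to 9.44). The log2 ratio was 7.33 (6.21 to 8.78), a 161-fold difference. Relative to the median protein-coding gene the log2 ratio was 8.53 (7.40 to 9.97). In the STAR matrices the RNA had 2331 and 28 UMIs, or 115 and 1.39 CPM, with a log2 ratio of 6.38 (5.84 to 6.97). Over the 1328 and 1123 kallisto-filtered barcodes listed in both matrices, STAR gave 1243 and 10 UMIs and a log2 ratio of 6.07 (5.19 to 7.13). Both matrices thus put 7SK higher in the in situ polyadenylated library by an amount far beyond the counting error, while the 6 mRNAs lay on the opposite side of 0, as the plot of the members' CPM shows.

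**Figure D1:**
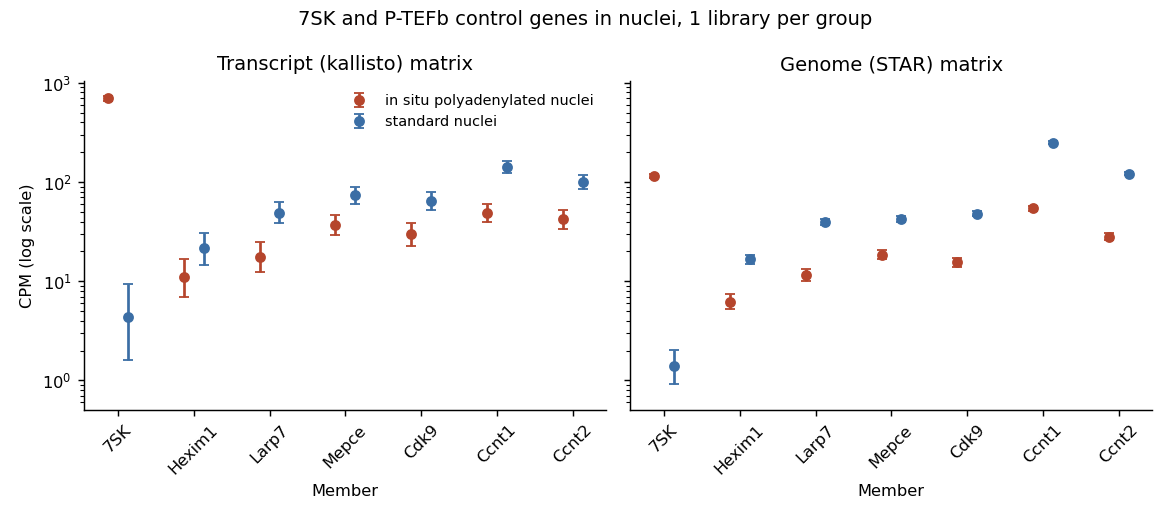
CPM (log scale) of the 7 genes in in situ polyadenylated and standard nuclei, in the kallisto matrix (left) and the STAR matrix (right), with 95% counting intervals; each point is 1 library. 7SK stood at 700.0 and 4.34 CPM in kallisto and at 115 and 1.39 in STAR, whereas each of the 6 mRNAs was lower in the in situ polyadenylated nuclei.

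Other RNAs that end without a poly(A) tail gave a scale for this difference. Rpph1, the RNA of RNase P, had 850 and 1 kallisto UMIs in the in situ polyadenylated and standard nuclei. Rmrp, the RNA of RNase MRP, had 347 and 1. The nucleolar RNAs Snord118 (U8) and Snord13 (U13) had 748 and 0, and 375 and 1. Against the floor of 3 UMIs used where a library had 0, Snord118 was at least 7.45 log2 units higher, and with 1 UMI in the standard library the intervals of the other RNAs were wide (Rpph1 6.74 to 14.52, Rmrp 5.44 to 13.23, both in log2). The Y RNA Rny1 and the vault RNA Vaultrc5 had 17 and 24 UMIs after in situ polyadenylation and 1 each in the standard nuclei, and Rny3 had 36 and 0. The STAR matrix gave 19318 and 34 UMIs for Snord118, 11115 and 67 for Snord13 and 6402 and 55 for Rpph1, with log2 ratios of 9.15, 7.37 and 6.86. 7SK shared its direction with each comparison RNA that had a ratio, in both matrices. In kallisto this direction was set by the rule for a ratio. An RNA with 0 or 1 UMIs in the standard nuclei gets one only with over 3 UMIs after in situ polyadenylation. STAR gave Rmrp, which has 2 overlapping rows, 0 UMIs in both libraries. Rn7s1 and Rn7s2, the signal recognition particle RNAs, had 0 UMIs in both kallisto libraries.

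Likeness to 7SK was ranked by the profile over 4 pools (nuclei and barcodes with 1 to 100 UMIs of each library). The 2255 genes ranked had at least 50 UMIs in the in situ polyadenylated nuclei, the pool that also held many 7SK UMIs. Counts below 3 were set to 3. The nearest gene was Rpph1, at a Euclidean distance of 0.77 between mean-centred log2 CPM. Rmrp followed at 0.89. Gm15564 (1.48), Tmem38b (1.48) and Scarna2 (1.51), a Cajal body RNA, came next. The order rests on 1 to 40 UMIs in the standard nuclei, so neighbours in it were not separable by count. Rpph1 and Rmrp had 1 UMI each there, so their values for that pool are the floor of 3.

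Nuclei were next compared with barcodes of 1 to 100 UMIs, since C2C12 nuclei hold no cell type known to lack 7SK as a reference. Whether the RNA of these barcodes came from outside nuclei was not tested. In the in situ polyadenylated library 7SK had 1852 UMIs over 229964 such barcodes, or 901 CPM, against 700.0 CPM in the nuclei. The log2 ratio of nuclei over low-UMI barcodes was -0.36 (-0.47 to -0.26). Retained nuclei held 31.4% (29.98 to 32.7) of all 7SK UMIs of the library and 29.2% of all its UMIs. In the standard library 7SK had 6 UMIs in the nuclei and 7 in 226358 low-UMI barcodes, a log2 ratio of 0.57 (-1.28 to 2.37), and a difference was not detectable at this depth. With all 330 rows of the symbol summed, 18 and 63 UMIs, the log2 ratio in the standard library was -1.02 (-1.86 to -0.24). Rows other than 7SK held 12 and 56 of these UMIs, so this value on the other side of 0 describes mainly those rows. The direction in the in situ polyadenylated library depended on the barcodes compared with. Against barcodes of over 100 and up to 500 UMIs the log2 ratio was 0.72 (0.59 to 0.84). That class may itself include nuclei, since STAR kept 3758 nuclei, whereas by kallisto 1335 nuclei and 1179 barcodes of 501 to 750 UMIs lay above it. Against barcodes of 1 to 100 UMIs the log2 ratio was -0.025 (-0.14 to 0.091) for nuclei with over 1500 UMIs.

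The comparison RNAs that had a ratio, all untailed, were lower in nuclei relative to low-UMI barcodes than 7SK was. Ribosomal RNA is not among them. Gm15564, ranked near 7SK above, was not lower in nuclei of the in situ polyadenylated library. It had 4705 UMIs there and 4101 in low-UMI barcodes, so a small difference was not particular to 7SK. In the in situ polyadenylated library the log2 ratio of nuclei over low-UMI barcodes was -1.08 (-1.20 to -0.97) for Rpph1 and -1.53 (-1.71 to -1.35) for Rmrp. It was -2.42 (-2.53 to -2.31) for Snord118 and -2.49 (-2.65 to -2.33) for Snord13. Of the mainly cytoplasmic RNAs, Rny3 stood at -1.90, and Rny1 (-2.67) and Vaultrc5 (-2.80) were the lowest of the RNAs compared. Malat1, a nuclear lncRNA whose mature 3′ end is an encoded A-rich tract rather than an added poly(A) tail, stood at -0.68 (-0.70 to -0.66). Set against each RNA directly, which removes the library totals, the nuclei-to-low-UMI ratio of 7SK was 1.65 times (1.48 to 1.84) that of Rpph1, 2.24 times (1.94 to 2.58) that of Rmrp and 4.16 times (3.74 to 4.62) that of Snord118.

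**Figure D2:**
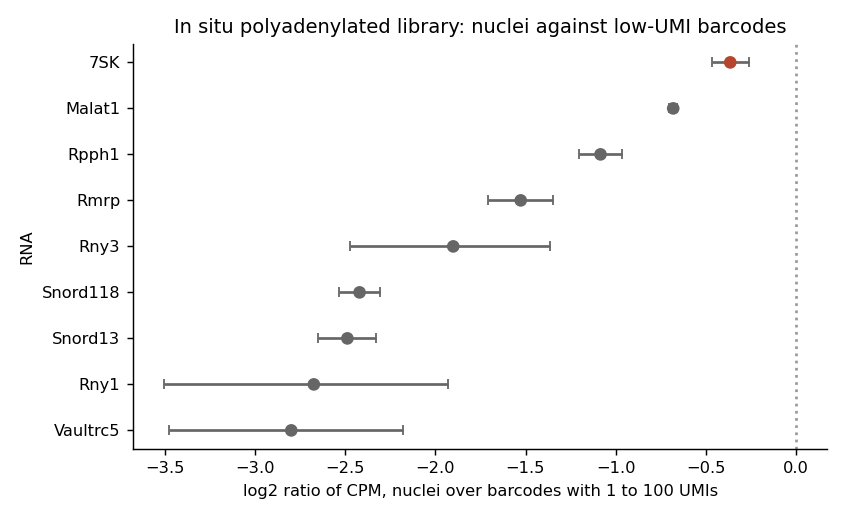
Log2 ratio of CPM in nuclei over low-UMI barcodes (1 to 100 UMIs) of the in situ polyadenylated library for 7SK, comparison RNAs without a poly(A) tail and Malat1; bars are 95% counting intervals. Among the RNAs shown, which leave out ribosomal RNA, 7SK was nearest to 0 at -0.36, and every one was below 0.

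By barcode depth the 7SK level did not move in 1 direction. Barcodes with 1 to 10 UMIs had 794 CPM (669 to 936), and those with over 10 and up to 100 had 911 (868 to 955). The level was 426 (398 to 456) from there to 500 UMIs and 440 (392 to 491) from 500 to 750. Within the nuclei it was 423 (366 to 486) up to 1000 UMIs, 585 (520 to 656) from 1000 to 1500, 1013 (932 to 1099) from 1500 to 3000 and 722 (645 to 806) above 3000. A single nucleus raised the value for 1500 to 3000 UMIs, which was 713 (645 to 786) without it. Both ends of the depth range thus had a higher 7SK CPM than barcodes with over 100 and up to 1000 UMIs. Rpph1 had 926 CPM at over 10 and up to 100 UMIs and 506 (475 to 538) from there to 500. Its lowest value was 361 (310 to 417) from 1000 to 1500, and above 3000 it had 521 (456 to 592). Rmrp had 516 CPM at over 10 and up to 100 UMIs, 202 (183 to 223) from there to 500, 127 (103 to 156) from 500 to 750 and 199 (160 to 245) above 3000. For Rpph1 and Rmrp the intervals above 3000 UMIs thus overlapped those at over 100 and up to 500, unlike for 7SK. Both were nonetheless higher above 3000 UMIs than in their own lowest class, without overlap of intervals, so a rise in deep nuclei was not particular to 7SK. Snord118 was at 2052, 339 and 353 CPM at over 10 and up to 100, from 1000 to 1500 and above 3000 UMIs. In the standard library 7SK stayed between 0 and 9.35 CPM in every depth class, on 0 to 21 UMIs.

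**Figure D3:**
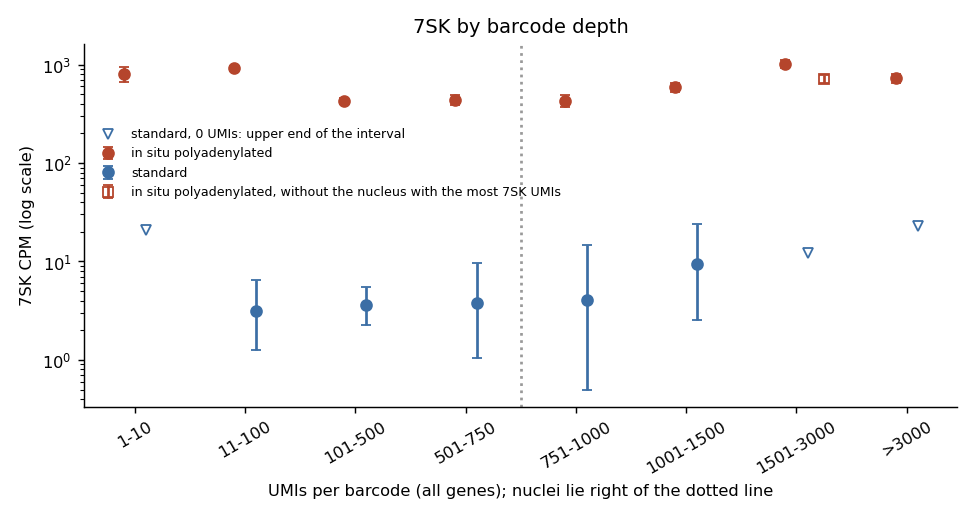
7SK CPM (log scale) by UMIs per barcode in both libraries, with 95% counting intervals; open triangles mark classes with 0 UMIs at the upper end of the interval, and the open square leaves out the nucleus with the most 7SK UMIs. The in situ polyadenylated library had its lowest values, 423 to 440 CPM, at over 100 and up to 1000 UMIs.

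How many nuclei showed the RNA was examined at equal depth. Thinned to 750 UMIs, 20.2% (18.1 to 22.5) of the 1335 in situ polyadenylated nuclei and 0.446% (0.145 to 1.04) of 1120 standard nuclei had a 7SK UMI, with 3 standard nuclei too shallow to be thinned. Without thinning the shares were 25.4% and 0.534%. Of the low-UMI barcodes, 0.743% and 0.00309% had one, at a median depth of 1 UMI. Rpph1 was seen in 19.6% of the thinned in situ polyadenylated nuclei, Snord118 in 23.0% and Snord13 in 12.1%.

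The 7SK UMIs were unevenly spread over these nuclei in the kallisto matrix. 68 nuclei had 1 UMI, 84 had 2 and 187 had 3 or more, and 67 nuclei held 694 of the 1382 UMIs. A single nucleus held 171, which was 12.4% of all 7SK UMIs and 9.45% of its own 1810 UMIs, while the next highest nucleus had 19. That nucleus had 0 UMIs of Rpph1, 2 of Snord118 and 1 of Malat1. Without it the variance of thinned 7SK counts was 2.40 times their mean, against 1.81 for Rpph1, 1.58 for Rmrp, 1.07 for Snord118 and 1.01 for Snord13, each without its highest nucleus.

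The STAR matrix gave another picture of the same 1328 nuclei. It found 7SK in 697 of them (52.5%), kallisto in 338 (25.5%), and 337 nuclei were positive in both. The totals were close, at 1228 and 1209 UMIs without the highest nucleus of each. In the STAR matrix 385 nuclei had 1 UMI, 186 had 2 and 126 had 3 or more, and without the highest nucleus the variance was 1.57 times the mean, against 4.84 times in kallisto. The order among RNAs was not the same in STAR, where this value, on the same nuclei and without thinning, was 3.46 for Rpph1, 6.02 for Snord118 and 3.74 for Snord13, all above 7SK and on larger UMI totals. In kallisto it was 3.02, 1.58 and 1.14 for these 3 RNAs, all below 7SK. The nucleus with 171 kallisto UMIs had 15 STAR UMIs, still the highest of the 1328, and the second had 9. Of the 385 nuclei with 1 STAR UMI, 34.5% had any in kallisto, and this share was 58.6% of those with 2 and 74.1% of those with 3 to 5. The 7SK total was thus nearly the same in both matrices, while its spread over nuclei was more uneven in kallisto.

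**Figure D4:**
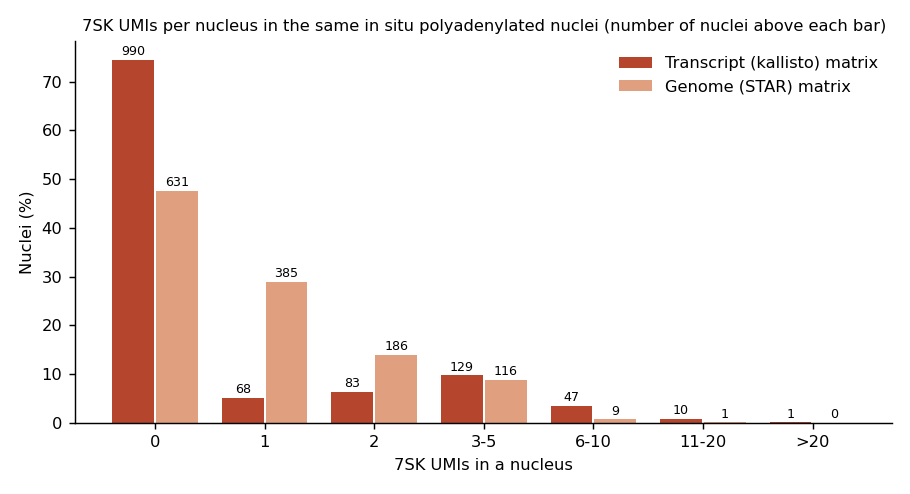
Percent of the same 1328 in situ polyadenylated nuclei with a given number of 7SK UMIs in the kallisto and STAR matrices, with the number of nuclei above each bar. Kallisto left 990 nuclei without 7SK and STAR left 631, and 1 nucleus had more than 20 UMIs in kallisto.

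7SK was set beside other RNAs of the same nuclei in a joint thinning to 750 kallisto UMIs, in which 266 nuclei had a 7SK UMI and 1069 had none. Rpph1 was present in 26.7% (21.5 to 32.4) of the former and 18.2% (16.0 to 20.7) of the latter. Rmrp was present in 14.7% (10.6 to 19.5) and 7.58% (6.06 to 9.33), Snord118 in 30.1% (24.6 to 36.0) and 22.4% (19.9 to 25.0), and Snord13 in 18.8% (14.3 to 24.0) and 12.2% (10.3 to 14.3). The share was higher for all 4 untailed RNAs where 7SK was found, although the intervals overlapped for Snord118. Nuclei are not replicates, so these are descriptions of 1 library.

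In situ polyadenylated nuclei also differed in ENSMUSG00002075551, a short annotated gene that shares sequence with ribosomal RNA and was present in 507 of the nuclei. 7SK stood at 749 CPM in these and at 654 in the 828 without it. Leaving out the nucleus with 171 7SK UMIs turned the order, to 571 against 654 CPM. With UMIs of rRNA genes and of that gene removed from the totals, 7SK was higher where the gene was present with that nucleus (2496 against 1521 CPM) and without it (1906). The 507 nuclei with the gene were also deeper, with a median of 1366 UMIs against 1007.5. The parts of this gene and of depth in the 7SK values were not tested.

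The other 329 rows named 7SK are annotated copies, renamed with Gm numbers and kept as misc_RNA in GENCODE M39, of 83 to 371 nt. Their identity to 7SK, as edits per base of the copy aligned within 7SK, had a median of 63.0% and ranged from 54.2% to 88.9%. Of the 301 stretches of 31 bases in 7SK, the unit that kallisto matches, 219 also occurred in at least 1 of 25 other rows, and 0 occurred in a gene outside the 330. In the first 110 bases, 27 of 316 copies of at least that length kept 3 or more GATC motifs. Reads from shared stretches can be split or moved between rows, so the main row is uncertain to that extent.

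In the in situ polyadenylated nuclei the main row took nearly all of the symbol. It held 1382 of 1389 UMIs, or 99.5% (99.0 to 99.8), and the other 7 UMIs lay in 5 rows. In the standard nuclei it held 6 of 18 UMIs, or 33.3% (13.3 to 59.0), and over every standard barcode 38 of 178, or 21.3% (15.6 to 28.1). By kallisto the copies together had 13.2 CPM over every standard barcode and 6.21 over every in situ polyadenylated one. By STAR the order was opposite, at 1.42 and 3.95 CPM. With all 330 rows summed the log2 ratio between the nuclei was 5.76 (5.09 to 6.52). Over every standard barcode most kallisto UMIs under the symbol thus lay on rows other than Rn7sk, whereas STAR put 28 of 57, or 49.1% (35.6 to 62.7), on the main row.

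Among the copies, Gm55801 had the most UMIs in the standard library, 29 over all barcodes against 2 in the in situ polyadenylated library. It lies in an intron of Zfp318 on the same strand (chr17:46714801-46715124, plus strand) and is 88.9% identical to 7SK. Gm55956, in an intron of Rheb on the same strand (chr5:25025591-25025835, minus strand), had 25 and 1 UMIs, and Gm55937 (chr17:37326235-37326482, plus strand), in no other same-strand gene, had 18 and 2. Gm55956 and Gm55937 are only 58.4% and 58.9% identical to 7SK and share 0 stretches of 31 bases with it. In the standard library STAR counted 0 UMIs for Gm55801, 0 for Gm55956 and 1 for Gm55937. The 30 bases that follow each gene are shown for 7SK and Gm55801, with runs of at least 4 A in capitals, since oligo(dT) can prime on A stretches encoded in a longer RNA (whether it did so here was not tested).
Downstream of 7SK (chr9:78082555-78082584, minus strand): tgtagttcctgcaatttaattttcgtttaa
Downstream of Gm55801 (chr17:46715125-46715154, plus strand): AAAAAAAAAAAAtaggaaagtaattttact
An encoded run of 12 A followed Gm55801, and 7 of the 30 bases after 7SK were A with no such run. The copies with standard UMIs did not share this feature, since 1 of these 32 rows and 1 of the other 297 had a run of at least 10 A there. Of the 32 rows, 19 lay in a same-strand gene, against 88 of the 297.

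The genes of the 7SK complex were then followed in order of role. Hexim1, the inhibitor (chr11:103007057-103010551, plus strand, a single exon of 3495 nt), had 22 and 30 UMIs in in situ polyadenylated and standard nuclei, or 11.1 and 21.7 CPM. Its log2 ratio was -0.96 (-1.82 to -0.12), and relative to the median protein-coding gene it was 0.23. Larp7, which protects the 3′ end (chr3:127329247-127347017, minus strand), had 35 and 68 UMIs, or 17.7 and 49.2 CPM, a log2 ratio of -1.47 (-2.10 to -0.86) and a relative ratio of -0.28. Mepce, the capping enzyme (chr5:137779652-137785917, minus strand), had 73 and 102 UMIs, or 37.0 and 73.8 CPM, a log2 ratio of -0.996 (-1.45 to -0.55) and a relative ratio of 0.20. All 3 were lower in CPM in the in situ polyadenylated nuclei, and by kallisto the counting intervals of their relative ratios included 0.

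The kinase module followed the same course. Cdk9 (chr2:32595794-32603589, minus strand, with the miRNA genes Mir2861 and Mir3960 on the same strand inside it) had 59 and 90 UMIs, or 29.9 and 65.1 CPM. The log2 ratio of Cdk9 was -1.12 (-1.62 to -0.63), or 0.07 relative to the median protein-coding gene. Ccnt1, cyclin T1 (chr15:98436570-98468804, minus strand), had 96 and 198 UMIs, or 48.6 and 143 CPM, with a log2 ratio of -1.56 (-1.93 to -1.20). Relative to the median protein-coding gene Ccnt1 was at -0.37 (-0.73 to -0.01), the only member whose kallisto interval lay below 0. Ccnt2, cyclin T2 (chr1:127701901-127735798, plus strand), had 83 and 139 UMIs, or 42.0 and 100.5 CPM, a log2 ratio of -1.26 (-1.67 to -0.86) and a relative ratio of -0.07. By kallisto each of the 6 mRNAs thus lay within 0.37 log2 units of the median protein-coding gene, and 7SK lay 8.53 above it.

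In the STAR matrix the UMIs in the in situ polyadenylated and standard nuclei were 126 and 336 for Hexim1, 234 and 802 for Larp7, 373 and 862 for Mepce, 313 and 971 for Cdk9, 1103 and 5034 for Ccnt1 and 566 and 2456 for Ccnt2. The median protein-coding gene stood at a log2 ratio of -1.95 there (9495 genes). Relative to it the ratios were above 0 beyond counting error for Hexim1 (0.53, 0.22 to 0.83), Mepce (0.73, 0.56 to 0.91) and Cdk9 (0.31, 0.12 to 0.50). They were below 0 for Ccnt1 (-0.25, -0.34 to -0.15) and Ccnt2 (-0.17, -0.31 to -0.04), and the interval of Larp7 (0.17, -0.05 to 0.38) included 0. Larp7 changed side between the matrices. Ccnt1 was the lowest of the 6 in both, followed by Larp7 in kallisto and by Ccnt2 in STAR. A called gene had 20 or more UMIs when both libraries were added up, and a relative log2 ratio above 1 or below -1. By kallisto 0 of 6 were above 1, where 3.61% of the 8430 genes tested were, and 0 of 6 were below -1, where 11.6% were. By STAR 0 of 6 were above 1 and 0 of 6 below -1, where 21.5% and 2.25% of 17060 genes were. Their median relative log2 ratio was 0.0015 by kallisto and 0.24 by STAR, and the medians of all protein-coding genes tested were -0.21 and 0.10.

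Single nuclei seldom showed these mRNAs. In nuclei thinned to 750 UMIs the share with a UMI ran from 1.12% (0.630 to 1.85) for Hexim1 to 3.00% (2.15 to 4.06) for Mepce in the in situ polyadenylated library. The standard library ran from 1.88% (1.16 to 2.85) for Hexim1 to 8.93% (7.32 to 10.8) for Ccnt1. The intervals of both libraries did not overlap for Ccnt1 (2.92%, 2.09 to 3.97, and 8.93%), Ccnt2 (2.77%, 1.96 to 3.8, and 6.25%, 4.90 to 7.83), Larp7 (1.42%, 0.859 to 2.21, and 3.75%, 2.72 to 5.04) or Cdk9 (2.32%, 1.58 to 3.28, and 4.55%, 3.41 to 5.94). They overlapped for Hexim1 and Mepce. The share of all genes with such intervals was not computed, so this is not a result about the 6 mRNAs. The median protein-coding gene was itself lower in the in situ polyadenylated nuclei, at a log2 ratio of -1.19, and nuclei are not replicates. Without thinning, a UMI of at least 1 of the 6 mRNAs was present in 22.1% of in situ polyadenylated nuclei and 37.6% of standard nuclei. Of the 339 in situ polyadenylated nuclei with 7SK, 89 also had a UMI of at least 1 of the mRNAs.

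The mRNAs were also compared between nuclei and low-UMI barcodes. In the in situ polyadenylated library the log2 ratio was -0.92 (-1.31 to -0.53) for Ccnt2, -0.80 (-1.63 to -0.02) for Hexim1 and -0.62 (-1.06 to -0.19) for Mepce, all lower in nuclei. Cdk9 (-0.08), Larp7 (-0.02) and Ccnt1 (0.06) had intervals that included 0. In the standard library the 6 values lay between -0.39 (Cdk9, -0.76 to -0.02) and 0.18 (Larp7, -0.28 to 0.63). In that library the intervals of Cdk9 and Ccnt2 (-0.38, -0.68 to -0.09) excluded 0. The same ratio was not computed over all protein-coding genes, so whether these values are particular to the 6 mRNAs was not tested.

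STAR also counted more UMIs of each of the 6 mRNAs than kallisto. On the same barcodes STAR counted 6.90 times as many Ccnt1 UMIs as kallisto did in in situ polyadenylated nuclei and 8.20 times as many in standard nuclei. The ratios were 3.76 and 5.18 for Ccnt2, 3.8 and 3.63 for Larp7, 3.45 and 3.5 for Hexim1, 3.15 and 3.06 for Cdk9 and 2.82 and 2.47 for Mepce. Introns made up 69.9% of the Ccnt1 gene, 78.0% of Larp7, 53.6% of Ccnt2, 35.1% of Mepce and 31.3% of Cdk9, and Hexim1 has none. Over protein-coding genes with 20 or more kallisto UMIs the median gene had ratios of 4.46 and 5.20. The median was 1.71 and 2.49 for those with a single exon (97 and 88 genes) and 4.51 and 5.24 for those with introns. Hexim1, at 3.45 and 3.5, was thus above the median single-exon gene. The part of intronic reads in these ratios was not tested. 7SK, which has no intron, had 0.90 times as many UMIs by STAR in the in situ polyadenylated nuclei, whereas Rpph1 had 4.06 times and Snord118 13.6 times.

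The wider P-TEFb pathway comprised 43 listed genes, 37 of which had at least 20 UMIs. Of these, 0 were above 1 and 4 below -1, with a median relative log2 ratio of -0.17, beside -0.21 for all protein-coding genes. This share below -1 was close to the 11.6% of all genes tested. By STAR 2 of 42 were above 1, where 21.5% of all genes were, and 0 were below -1, with a median of -0.03. Of 14 tested partners and release factors of P-TEFb (median -0.09), Srsf2 (0.60, 0.28 to 0.92), an SR protein that acts on 7SK-bound P-TEFb, and Aff1 (0.52, 0.15 to 0.90), a scaffold of the super elongation complex, were highest. Ell2 (-1.16, -1.88 to -0.50), an elongation factor of that complex, Ppm1a (-1.07, -1.78 to -0.41), a phosphatase, and Mllt3 (-1.03) were the 3 below -1. By STAR, Ell2 and Ppm1a were nearer to 0 (-0.43 and -0.51) and Mllt3 stood at 1.83.

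The 4 hnRNPs that bind released 7SK were all below 0 in both matrices, as were 5415 of 8430 genes tested by kallisto and 6945 of 17060 by STAR. Hnrnpr had 60 and 182 UMIs and a relative log2 ratio of -0.92 (-1.37 to -0.49), and Syncrip had 64 and 190 and -0.89 (-1.32 to -0.48). Hnrnpa1 (-0.59) and Hnrnpa2b1 (-0.51) were the higher pair. The list median was -0.74 by kallisto and -0.35 by STAR, with 0 of 4 called in either matrix.

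Among 12 tested elongation and pausing factors (median -0.19), Rtf1 (0.76, 0.46 to 1.06), a PAF complex protein, and Supt5 (0.43, 0.16 to 0.70), the large subunit of DSIF, were highest. Supt4a, the small subunit of DSIF (-1.38, -2.96 to -0.06, on 6 and 25 UMIs), was the 1 gene below -1, and Paf1 (-0.52) was next. Other transcription kinases and their partners (7 tested, median 0.40) ran from Cdk7 (-0.07) and Cdk13 (-0.02) to Cdk19 (0.51) and Ccnk (0.63), with 0 called. Cdk8 had 57 and 65 kallisto UMIs but 91296 and 8495 STAR UMIs, a relative log2 ratio of 5.37 by STAR against 0.49 by kallisto, and was singled out after its values were seen.

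Genes for 7SK synthesis, namely RNA polymerase III subunits, type 3 promoter factors and the La gene Ssb, had a median of -0.25 over 16 tested, with 0 above 1 and 2 below -1, near the 11.6% of all genes. Snapc4, a subunit of the snRNA activating complex, had 131 and 141 UMIs and a relative log2 ratio of 0.57 (0.22 to 0.93), and Polr3d stood at 0.35. Polr3f had 5 and 42 UMIs and a ratio of -2.39 (-4.09 to -1.06), and Polr3gl had 9 and 29 and -1.01. By STAR these last 2 stood at -0.23 and -0.24, and the 1 gene of 21 above 1 was Pou2f1 (1.75), which encodes an octamer-binding promoter factor and stood at -0.52 by kallisto.

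**Figure D5:**
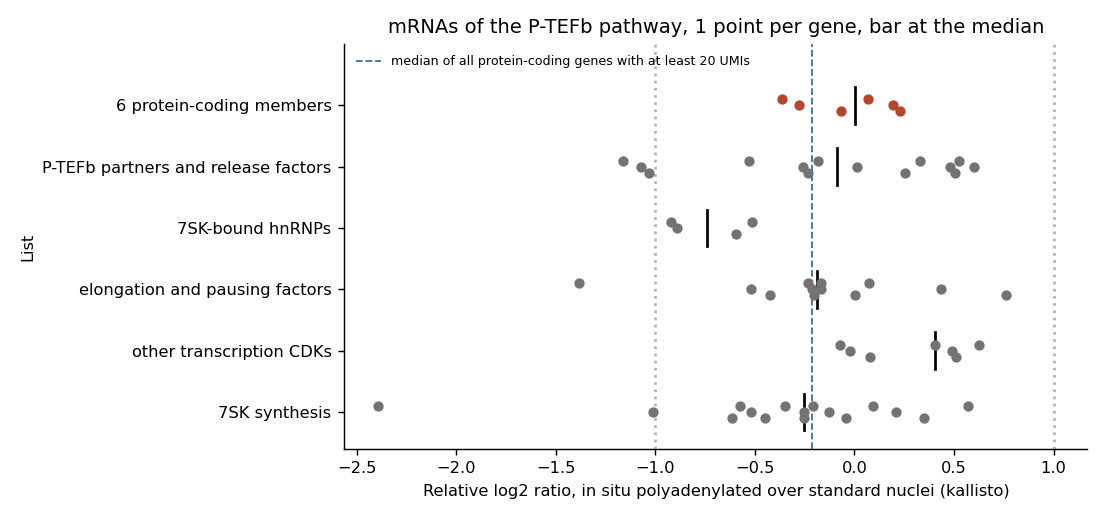
Relative log2 ratio (in situ polyadenylated over standard nuclei, kallisto, set to 0 at the median protein-coding gene of 50 or more UMIs per library) of the 6 protein-coding members and of pathway genes with at least 20 UMIs; each point is a gene, the black bar is the list median and the dashed line is the median of all protein-coding genes tested (-0.21). The members lay between -0.37 and 0.23 and the 4 hnRNPs between -0.92 and -0.51.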

How the data were processed

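The study's authors trimmed reads with cutadapt 3.4 and quantified them by 2 routes on GRCm39 with GENCODE M28. The deposited kallisto 0.48.0 and bustools 0.41.0 matrices hold estimated counts of UMIs (strand-aware, every barcode, not normalized, 1.10% and 2.65% of entries not whole). The deposited STAR 2.7.10a matrices hold UMI counts for a subset of barcodes, by a selection that is not stated in the labels or methods read here. GENCODE M39 (same build) gave places, classes and sequences. Kallisto was the main measurement. UMIs were summed over nuclei (more than 750 UMIs, under 5% mitochondrial), rounded and scaled to an equal total (CPM). Depth was 6761140 UMIs (in situ polyadenylated) and 10593453 UMIs (standard), of which the nuclei held 1974403 and 1382984.

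Shares carry Clopper-Pearson intervals and log2 ratios the exact conditional interval of 2 Poisson counts. A count of 0 was set to 3 UMIs per library, and pairs with no more than 3 UMIs each got no ratio. Relative ratios subtract the median of protein-coding genes that had 50 or more UMIs in both libraries. Doublets were not called. Thinning drew 750 UMIs per nucleus without replacement. Ratio code was tested on simulated data. Python 3.11.15, numpy 2.4.6, scipy 1.17.1 and pandas 2.3.3 were used.

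Named genes were the 7 members, comparison RNAs, the 2 highest and 2 lowest genes of each pathway list, and the 5 genes most like 7SK. Malat1, Mllt3, Cdk8, Pou2f1, ENSMUSG00002075551, the Gm copies and all 4 hnRNPs were added with values known. Members and lists were chosen with earlier results of these data known. Of the genes examined, 1 is not reported here.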

Additional observations from a re-analysis of the deposited data

How the results depend on the processing

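No paired analysis was possible because there was a single library per group. A value is said to have moved when it left its counting interval, or 1.5-fold for a list median. Of 45 alternative values, 12 moved and 3 turned direction. Of the other 30, 1 crossed 0, with a starting interval that spanned it.

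The 7SK log2 ratio between the libraries (7.33) was 6.07 by STAR on the kallisto-filtered barcodes and 5.76 with all 330 rows summed. With a minimum of 1500 UMIs the standard nuclei held 0 7SK UMIs, so 7.10 is a lower bound. The median relative log2 ratio of the 6 mRNAs (0.0015) was -0.056 with a minimum of 500 UMIs and -0.25 with 1500, and with the latter Hexim1 went from 0.23 to -0.95 and Cdk9 from 0.07 to -0.46. Larp7 and Cdk9 kept their side under 3 of 5 alternatives, Hexim1 under 4, and the other members under all 5.

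The 7SK ratio of nuclei over low-UMI barcodes after in situ polyadenylation (-0.36) was -0.18 against barcodes of 1 to 10 UMIs. Against those of over 100 up to 500, which may include nuclei, the ratio was 0.72, a turn in direction. Against the low-UMI barcodes of 1 to 100 UMIs it was -0.025 for nuclei of over 1500 UMIs and -0.61 without rRNA and mitochondrial genes in the totals. Among settings chosen after seeing the data, it was -0.022 when ENSMUSG00002075551, Lars2 and Mir6236 were left out of the totals too, and -0.55 without the nucleus with 171 7SK UMIs. In the standard library (0.57) it was at least -1.96 against barcodes of 1 to 10 UMIs, which held 0. With all 330 rows summed, a setting chosen after seeing the data, the standard-library ratio was -1.02 (-1.86 to -0.24). That value lay inside the wide interval of 0.57 but on the other side of 0, with most of its UMIs on rows other than 7SK. Why these values moved was not tested.

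The share of thinned nuclei with 7SK (20.2%) was 12.3% at 300 UMIs, 25.4% without thinning, 27.5% for nuclei of over 1500 UMIs and 9.13% in STAR nuclei thinned to 750. With 6 standard 7SK UMIs, depth limits the ratio between the libraries, and 22 to 198 UMIs per library limit the 6 mRNAs.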
